A study of Mus musculus with 12 samples.

Results

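Of 147985 loci with an ATAC-seq peak in at least 1 of 7 groups of transformed mouse embryonic fibroblasts (MEFs), 2291 were rich in CpG and lay away from the promoters of coding genes. ATAC-seq uses the Tn5 transposase to mark accessible DNA, and a locus is a region in which peaks of the 7 lists overlap. A locus was kept if it lay more than 1000 bp from every annotated start site (TSS) of a coding gene in the GENCODE M21 basic set. Its GC content in mm10 had to be 55% or more and its ratio of observed to expected CpG 0.6 or more. No peak value entered this choice beyond the presence of a peak, and the 2291 loci are called members. Members, as CpG-rich loci, were set beside 128645 CpG-poor loci away from coding promoters and 11081 CpG-rich loci at coding promoters.

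The 12 samples were libraries of about 50000 cells each from OG2 MEFs, which carry an Oct4-GFP reporter, although the growth label names a wildtype ICR background, with E13.5 embryos. The 3 lines were immortalized with transgenes, Hras with E1A, Hras with Myc, and Hdac7SA with Mef2d. Per the paper the Hras transgene was the oncogenic G12V form, and Hdac7SA is an engineered form of a histone deacetylase. Hras.E1A and Hras.Myc cells were each treated for 2 days with PD0325901 (PD), which inhibits the kinase MEK, or with trichostatin A (TSA), which inhibits histone deacetylases, and were also left untreated. Hdac7SA.Mef2d cells were untreated. The 7 groups had 2 libraries each apart from the TSA groups, which had 1 library each, and each group had 1 pooled peak list. In the study, Hdac7SA.Mef2d cells could be reprogrammed, Hras.E1A cells only with MEK inhibition, and Hras.Myc cells not, so the lists show which chromatin differs between lines and which changes with each inhibitor. Each combination of transgenes is 1 line, so transgene and line cannot be told apart. The promoters of 13, 10 and 12 of 14 fibroblast markers had a peak in the untreated lists of Hdac7SA.Mef2d, of Hras.E1A and of Hras.Myc, and no promoter of 4 pluripotency markers was open in any of these lists. Promoters of other cell types' markers were open as well, including all 4 epithelial ones in each untreated list, so an open promoter does not by itself mark the cell type.

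CpG islands are stretches of DNA that escaped the loss of CpG seen in most of the genome, where methylated cytosine mutates to thymine. Most cover promoters. Those away from annotated coding promoters are called orphan islands, and many of them start non-coding or alternative transcripts, lie in imprinted regions, or cover the exons and flanks of developmental genes that Polycomb proteins keep silent. Unmethylated CpG is bound by CXXC-domain proteins such as KDM2B, and the GC box that is common in islands is bound by SP and KLF factors.

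The sequences below are the central 200 bp of 2 members from each of 6 classes of behaviour, taken in order of the highest lowest peak score of the lists in which the locus was open. They are shown so that the density of CpG can be read directly. Bases are from the plus strand of GRCm38 (mm10) and CpG dinucleotides are in capitals. Members open in all 7 lists with a non-coding TSS within 1000 bp are given first, at Ftx (chrX:103622384-103622583) and Snhg15 (chr11:6528718-6528917). Members open in all 7 lists with no annotated TSS within 5000 bp follow, upstream of Phf2 (chr13:48878664-48878863) and in an intron of Filip1l (chr16:57391435-57391634). Members closed with PD in both Hras lines lie 206132 bp from the TSS of Cd109 (chr9:78821778-78821977), its nearest coding gene, and 16058 bp from that of Meis3 (chr7:16158918-16159117), and members opened with PD in both lie near Phospho1 (chr11:95796713-95796912) and Nfil3 (chr13:52978536-52978735). Members open in Hdac7SA.Mef2d alone lie 26123 bp from the Socs5 TSS (chr17:87133902-87134101) and 96160 bp from that of Mrpl15, the nearest coding gene (chr1:4689251-4689450). The last pair are members at the imprinted genes Trappc9 (chr15:73067561-73067760) and Gnas (chr2:174295357-174295556).
Ftx: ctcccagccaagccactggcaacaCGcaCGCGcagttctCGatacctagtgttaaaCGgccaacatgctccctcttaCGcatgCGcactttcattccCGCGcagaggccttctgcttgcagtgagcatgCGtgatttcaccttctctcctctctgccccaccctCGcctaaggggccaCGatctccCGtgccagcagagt
Snhg15: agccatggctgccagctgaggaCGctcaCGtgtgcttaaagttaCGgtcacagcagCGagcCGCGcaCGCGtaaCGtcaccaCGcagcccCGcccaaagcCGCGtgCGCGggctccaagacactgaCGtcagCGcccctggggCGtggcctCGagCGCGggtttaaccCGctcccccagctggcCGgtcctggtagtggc
Phf2: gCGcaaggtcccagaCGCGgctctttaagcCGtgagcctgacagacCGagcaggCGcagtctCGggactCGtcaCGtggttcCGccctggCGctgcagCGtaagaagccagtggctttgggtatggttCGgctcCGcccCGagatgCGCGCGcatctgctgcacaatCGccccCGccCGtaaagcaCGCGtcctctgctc
Filip1l: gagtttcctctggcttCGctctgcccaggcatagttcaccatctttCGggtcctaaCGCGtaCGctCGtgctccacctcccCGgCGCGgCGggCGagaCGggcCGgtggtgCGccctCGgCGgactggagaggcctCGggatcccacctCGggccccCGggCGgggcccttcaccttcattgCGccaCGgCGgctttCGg
Cd109: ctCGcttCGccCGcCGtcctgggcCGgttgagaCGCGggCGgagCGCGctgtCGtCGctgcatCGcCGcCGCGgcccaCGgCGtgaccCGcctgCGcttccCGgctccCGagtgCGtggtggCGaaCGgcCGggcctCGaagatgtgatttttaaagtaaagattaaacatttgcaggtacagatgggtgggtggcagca
Meis3: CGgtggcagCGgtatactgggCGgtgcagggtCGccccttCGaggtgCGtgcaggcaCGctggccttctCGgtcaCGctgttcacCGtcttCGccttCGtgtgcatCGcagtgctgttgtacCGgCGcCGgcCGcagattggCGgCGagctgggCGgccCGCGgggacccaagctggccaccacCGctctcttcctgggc
Phospho1: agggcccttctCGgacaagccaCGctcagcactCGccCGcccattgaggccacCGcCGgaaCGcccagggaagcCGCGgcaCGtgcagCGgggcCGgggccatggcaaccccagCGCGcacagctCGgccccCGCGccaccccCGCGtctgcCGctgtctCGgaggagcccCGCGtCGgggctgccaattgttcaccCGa
Nfil3: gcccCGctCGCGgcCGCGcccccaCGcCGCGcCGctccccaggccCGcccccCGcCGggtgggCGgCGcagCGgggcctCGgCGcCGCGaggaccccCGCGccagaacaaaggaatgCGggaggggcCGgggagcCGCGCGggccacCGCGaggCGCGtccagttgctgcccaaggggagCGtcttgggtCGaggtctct
Socs5: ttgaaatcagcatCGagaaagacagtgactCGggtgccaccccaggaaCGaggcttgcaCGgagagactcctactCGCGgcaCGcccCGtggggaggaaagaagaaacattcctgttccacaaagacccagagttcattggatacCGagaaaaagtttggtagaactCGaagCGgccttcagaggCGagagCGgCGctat
Mrpl15: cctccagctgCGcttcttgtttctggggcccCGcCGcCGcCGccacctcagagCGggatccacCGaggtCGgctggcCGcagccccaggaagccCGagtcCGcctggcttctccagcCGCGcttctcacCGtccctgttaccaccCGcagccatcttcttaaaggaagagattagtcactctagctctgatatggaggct
Trappc9: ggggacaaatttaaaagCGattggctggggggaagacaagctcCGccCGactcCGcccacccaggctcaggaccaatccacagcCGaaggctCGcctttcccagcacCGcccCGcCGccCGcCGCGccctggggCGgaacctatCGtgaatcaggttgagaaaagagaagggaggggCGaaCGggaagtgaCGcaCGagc
Gnas: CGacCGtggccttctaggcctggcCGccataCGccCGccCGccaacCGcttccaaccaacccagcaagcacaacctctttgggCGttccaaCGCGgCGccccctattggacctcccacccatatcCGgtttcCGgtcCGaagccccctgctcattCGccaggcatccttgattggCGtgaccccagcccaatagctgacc

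The windows held between 13 CpGs at Ftx and 32 at Nfil3. The windows closed with PD held 27 and 23 CpGs, and those opened with PD held 25 and 32. The Ftx, Socs5 and Mrpl15 windows held no GC box (GGGCGG on either strand), and the other 9 did. The Cd109 window lies over the processed pseudogene Gm8116, and the Mrpl15 window over the processed pseudogene Gm6085, and both kinds of copy can share reads with a parent gene.

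The flanks of the members were also richer in CpG than those of CpG-poor loci. Within the members, the median GC content was 64.8%, the median CpG ratio 0.773 and the median number of CpGs 32, and 2249 of them were 400 bp wide, the width of a single peak. In the flanks, from 200 to 1200 bp on either side of the locus midpoint, the median CpG ratio was 0.431. It was 0.186 in the flanks of CpG-poor loci away from coding promoters and 0.527 in those of CpG-rich loci at coding promoters. The flanks began at the edge of a locus 400 bp wide and took in the ends of wider loci. The rule fixed the composition of the loci but not that of the DNA beyond them. Members lay a median of 9417 bp from a coding TSS, against 41551 bp for CpG-poor loci. In all, 1903 members lay within 50000 bp of a coding TSS, and they were assigned to 1555 genes.

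Many members lay in coding exons. Coding sequence was touched by 636 of 2291 members (27.8%, 95% interval 25.9 to 29.6), against 3.78% of CpG-poor loci away from coding promoters, 43.3% of CpG-rich loci at coding promoters and 8.03% of all loci. The other members lay between genes (684), in introns of coding genes (543), in exons (293) or introns (104) of non-coding genes, or in untranslated regions (31). All intervals here are exact binomial intervals. Counting error is all they describe, and loci near each other enter them as if independent. A TSS of a non-coding gene of the basic set lay within 1000 bp of 527 members (23.0%). A coding TSS annotated only in the comprehensive set lay that close to 454 members, and any TSS of the comprehensive set or RefSeq to 1182 (51.6%). A tRNA gene lay within 1000 bp of 33 members.

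Some genes held several members. Bcor, which encodes a subunit of a Polycomb repressive complex, had 10, all in introns, and 7 of these were open in all 7 lists. Cbx8, a chromodomain subunit of canonical Polycomb repressive complex 1, had 6, with 3 shared by all 7 lists and 2 found in a single list. Wnt10a, a secreted WNT ligand, had 5, and Pax5, Polg, Jakmip1, Sp8, Otp, Nfia and Ptma had 4 each. All 4 members of Nfia, a nuclear factor I gene, and all 4 of Ptma were open in all 7 lists. Of all members, 160 had another within 2000 bp and 463 within 10000 bp.

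The members were open broadly. A locus counted as open in a list that had a peak overlapping it by at least 1 bp. Of the 2291 members, 1331 were open in all 7 lists (58.1%, 95% interval 56.0 to 60.1), against 12.7% of CpG-poor loci away from coding promoters, 87.0% of CpG-rich loci at coding promoters and 20.2% of all loci. Another 250 were open in 6 lists, 153 in 5, 174 in 4, 149 in 3, 112 in 2 and 122 in 1. The share open in 1 list only was 5.33% of members, against 33.6% of CpG-poor loci. The share open in all 7 fell to 32.2% without the lowest-scoring 25% of each list, where CpG-poor loci stood at 7.08%, and to 22.6% with lists cut to equal length, where they stood at 6.26%.

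**Figure D1:**
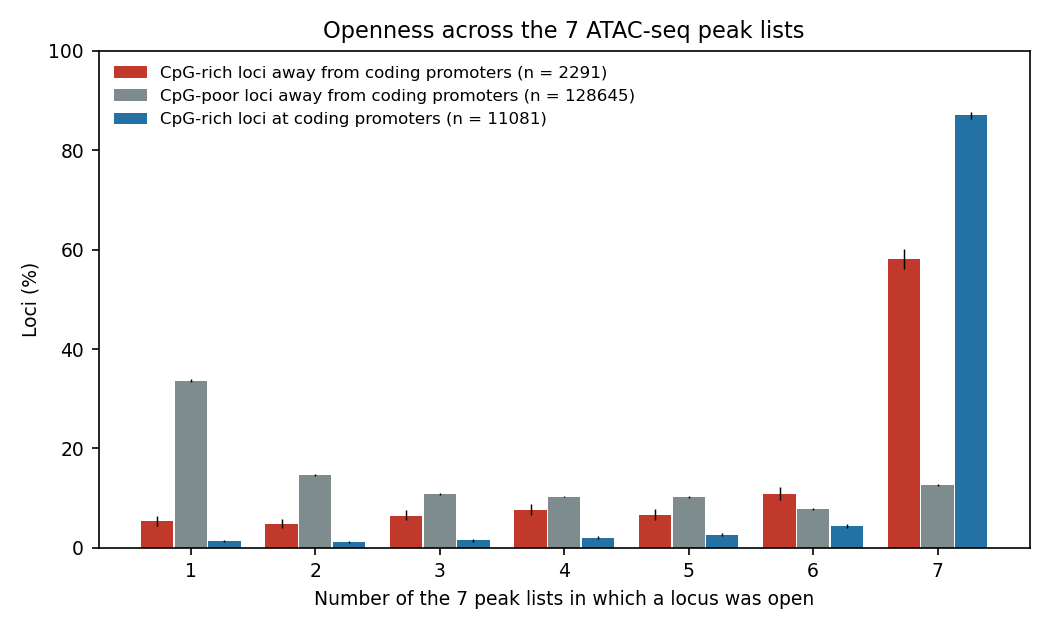
Percentage of loci (y axis) by the number of the 7 peak lists in which they were open (x axis), for members, CpG-poor loci away from coding promoters and CpG-rich loci at coding promoters. Error bars are exact 95% binomial intervals. Members pile up at 7 lists (58.1%), between CpG-poor loci (12.7%) and CpG-rich promoter loci (87.0%), and CpG-poor loci pile up at 1 list (33.6%).

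Counted by list, 1933 members were open in Hdac7SA.Mef2d cells. In Hras.E1A cells 1929 were open with PD, 1982 with TSA and 2032 untreated, and in Hras.Myc cells 1682 were open with PD, 1709 with TSA and 1804 untreated. The range was therefore 73.4% to 88.7% of members, whereas CpG-poor loci away from coding promoters ranged between 31.5% with PD in Hras.Myc and 78.7% in Hdac7SA.Mef2d. The untreated Hras.E1A list held the most members and the untreated Hdac7SA.Mef2d list the most CpG-poor loci.

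Non-coding genes differed in how broadly their starts were open. Among members with a non-coding TSS within 1000 bp, the nearest belonged to a lincRNA for 161, to an antisense RNA for 94, to a processed transcript for 69, to a processed pseudogene for 63 and to a miRNA for 32. Of the lincRNA members 117 were open in all 7 lists (72.7%, 95% interval 65.1 to 79.4), of the processed transcripts 52 (75.4%), and of the antisense RNAs 48 (51.1%, 40.5 to 61.5), against 58.1% of all members and 20.2% of all loci. Ftx, a non-coding gene of the X-inactivation centre, scored 12.6 in Hdac7SA.Mef2d, 19.8, 14.6 and 17.3 in Hras.E1A with PD, with TSA and untreated, and 12.2, 16.9 and 15.5 in Hras.Myc in the same order. The score was computed by the authors on a scale that is not stated, so it is given only to show how a peak stood within its list, and Ftx was high in each. The small nucleolar RNA host genes Snhg3, Snhg6 and Snhg15, and Dancr, whose start also carries Snora26, were open in all 7 lists, as were both members of Dleu2, a microRNA host gene. In a list of non-coding RNA genes named for this work, 12 of 13 members were open in all 7.

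Processed pseudogenes, which are copies of spliced transcripts, had a lower share. Of 63 members nearest to such a TSS, 17 were open in all 7 lists (27.0%, 95% interval 16.6 to 39.7). Repeated genes were also uncertain: the member at n-R5s142, one of the 5S ribosomal RNA genes, had a peak with PD (score 20.8) and untreated (21.6) in Hras.Myc cells, and no peak in any other list. Reads in near-identical copies may not be placed with certainty, and their handling by the authors was not found in the methods.

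Short sequence motifs set the members apart from other loci away from promoters, within the limit that the rule itself fixed their GC content. Motifs were searched on both strands of the central 200 bp. The GC box GGGCGG was found in 52.0% of members, against 4.04% of CpG-poor loci away from coding promoters, 67.0% of CpG-rich loci at coding promoters and 10.3% of all loci. TGANTCA, the site of AP-1 (FOS and JUN dimers that act below MEK and ERK), was found in 3.40% of members, against 32.7% of CpG-poor loci, 1.93% of CpG-rich promoter loci and 29.2% of all loci. CATTCC, the site of the TEAD partners of YAP, was found in 7.25% of members and 20.6% of CpG-poor loci. The members resembled promoters in these motifs but not in all. CCGGAAG, an ETS site typical of housekeeping promoters, was in 5.59% of members and 14.1% of CpG-rich promoter loci, and CCAATCA or CCAATGA, the NFY box, in 4.54% and 10.1%. Core forms of the CTCF site (AGGGGGCGC, AGGGGGCAG, AGGTGGCGC, AGGTGGCAG, AGATGGCGC, AGATGGCAG, AGAGGGCGC and AGAGGGCAG) were in 11.2% of members, 6.12% of CpG-poor loci, 6.40% of CpG-rich promoter loci and 6.22% of all loci, and in 13.7% of members open in all 7 lists. CTCF is the protein that anchors chromatin loops. TGCCGC, the core bound by the imprint-protecting factor ZFP57 when methylated, was in 22.1% of members and 22.7% of CpG-rich promoter loci, with 4.32% over all loci. Over all loci, the TEAD site was found in 18.9%, the ETS site in 2.17% and the NFY box in 5.42%.

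**Figure D2:**
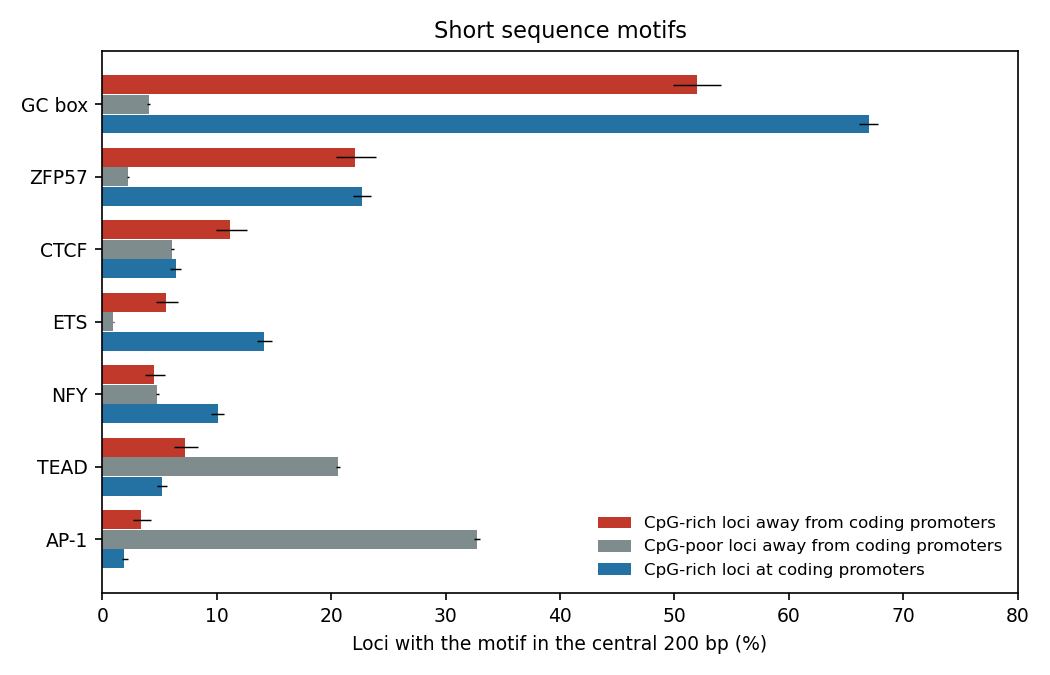
Percentage of loci with each motif in the central 200 bp (x axis), for members, CpG-poor loci away from coding promoters and CpG-rich loci at coding promoters, with exact 95% binomial intervals. The GC box was found in 52.0% of members and AP-1 in 3.40%, against 4.04% and 32.7% of CpG-poor loci. A match is a description of the letters and not a bound site.

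MEK inhibition closed few of the members. In Hras.E1A cells 192 of the 2032 members open without treatment were closed with PD (9.45%, 95% interval 8.21 to 10.8). The same share was 47.5% for CpG-poor loci away from coding promoters, 1.99% for CpG-rich loci at coding promoters and 38.9% for all loci. In Hras.Myc cells 220 of 1804 were closed (12.2%, 10.7 to 13.8), against 48.1% of CpG-poor loci, 2.73% of CpG-rich promoter loci and 38.4% of all loci. The untreated lists of Hras.E1A and of Hras.Myc shared 1736 open members. Of these PD closed 82 in Hras.E1A (4.72%), 188 in Hras.Myc (10.8%) and 41 in both (2.36%). The same shares over all loci were 32.5%, 33.9% and 24.4%. With 1 list per group there is no spread between replicates and no test. The PD lists were shorter than the untreated ones, with 59823 peaks against 81201 in Hras.E1A and 56774 against 67738 in Hras.Myc. With lists of equal length the closed share of members was 3.83% in Hras.E1A and 8.42% in Hras.Myc, while CpG-poor loci stood at 45.1% and 46.5%. Without the lowest-scoring 25% of each list it was 15.6% and 17.9%.

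The closed members had weak peaks. In untreated Hras.E1A cells the median score was 2.58 for members closed with PD and 5.34 for members kept, and in untreated Hras.Myc cells it was 3.31 and 5.39. The lowest score in any list was 1.2. AP-1 sites were in 1.56% of the members closed in Hras.E1A and 3.64% of those kept, whereas 58.6% of the CpG-poor loci closed in Hras.E1A held one. The GC box was in 37.0% of closed and 54.9% of kept members in Hras.E1A, and in 43.6% and 56.2% in Hras.Myc. The same counts read the other way: members with a GC box were closed with PD in 6.57% of cases in Hras.E1A and 9.74% in Hras.Myc. Members without one were closed in 12.7% and 15.2%. Those with a GC box also had higher untreated median scores, 5.48 against 4.65 in Hras.E1A and 5.54 against 4.55 in Hras.Myc. The part of peak strength in this difference was not tested.

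**Figure D3:**
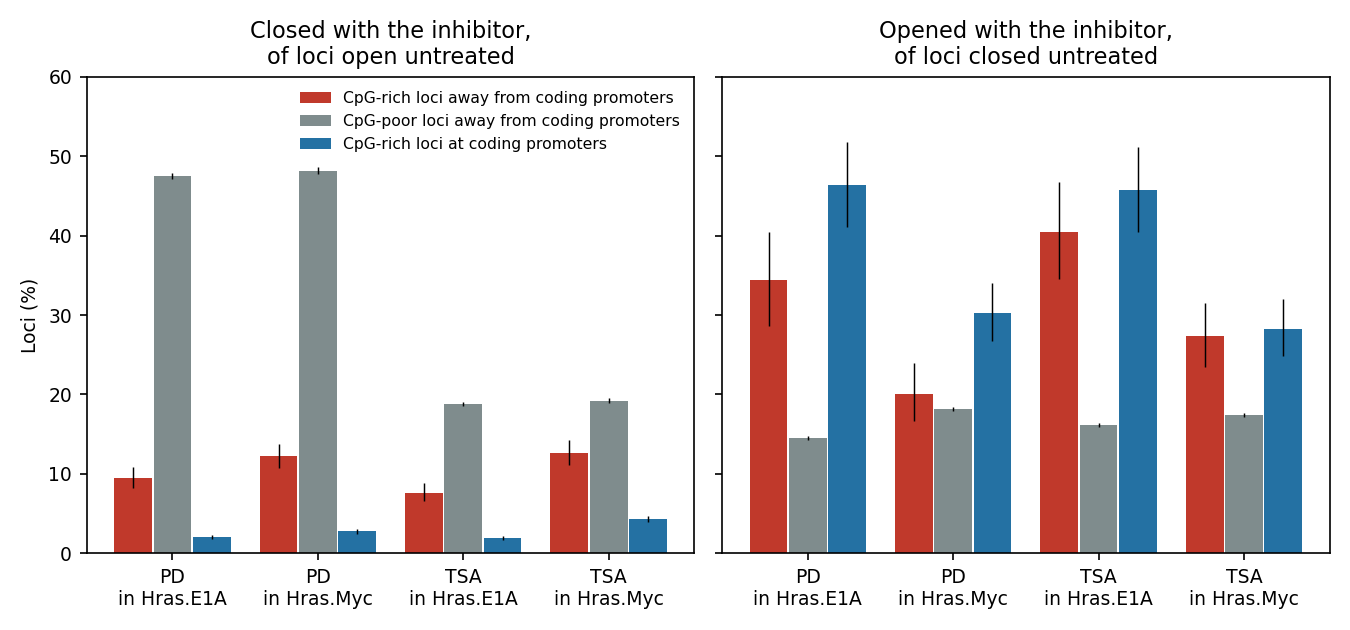
Percentage of loci closed with each inhibitor, of loci open untreated (left), and opened, of loci closed untreated (right), for members, CpG-poor loci away from coding promoters and CpG-rich loci at coding promoters, with exact 95% binomial intervals. Members closed less often than CpG-poor loci in each of the 4 comparisons, with 9.45% against 47.5% for PD in Hras.E1A.

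The members at developmental transcription factor genes had a higher closed share with PD than the other members, a difference that was not tested. These genes set up body plan and organ identity, and in fibroblasts many of them are Polycomb targets. Of 127 members assigned to 74 genes of this list, 47 were open in all 7 lists (37.0%, 95% interval 28.6 to 46.0), against 59.3% of the other members. With PD, 29 of 104 were closed in Hras.E1A (27.9%, 19.5 to 37.5) and 18 of 88 in Hras.Myc (20.5%, 12.6 to 30.4), against 8.45% and 11.8% of the other members. Over all loci of the list, members or not, 30.6% were closed in Hras.E1A and 29.4% in Hras.Myc, below the 38.9% and 38.4% of all loci. Of the 80 members of the list open in both untreated lines, PD closed 12 in Hras.E1A (15.0%) and 14 in Hras.Myc (17.5%). On the same base the shares were 4.72% and 10.8% for all members, and 32.5% and 33.9% for all loci. At CpG-rich coding promoter loci of the same list, 6 of 97 were closed in Hras.E1A and 7 of 92 in Hras.Myc. Where the member lay in coding sequence, 15 of 26 were closed in Hras.E1A (57.7%, 36.9 to 76.6) and 6 of 19 in Hras.Myc (31.6%, 12.6 to 56.6). At other genes, members in coding sequence were closed in 68 of 523 cases in Hras.E1A and 82 of 441 in Hras.Myc. The developmental members in coding sequence had weak peaks, with a median untreated score of 2.70 in Hras.E1A and 2.69 in Hras.Myc, against 4.34 and 4.42 for coding-sequence members of other genes. The whole list also had lower scores, with a median of 4.09 in untreated Hras.E1A cells against 5.06 over all members and 3.71 against 5.1 in untreated Hras.Myc cells, and the part of peak strength in their closing was not tested. With lists of equal length, 10.6% of them were closed in Hras.E1A and 14.0% in Hras.Myc, against 3.55% and 8.18% of the other members. This result was picked after the values were seen.

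**Figure D4:**
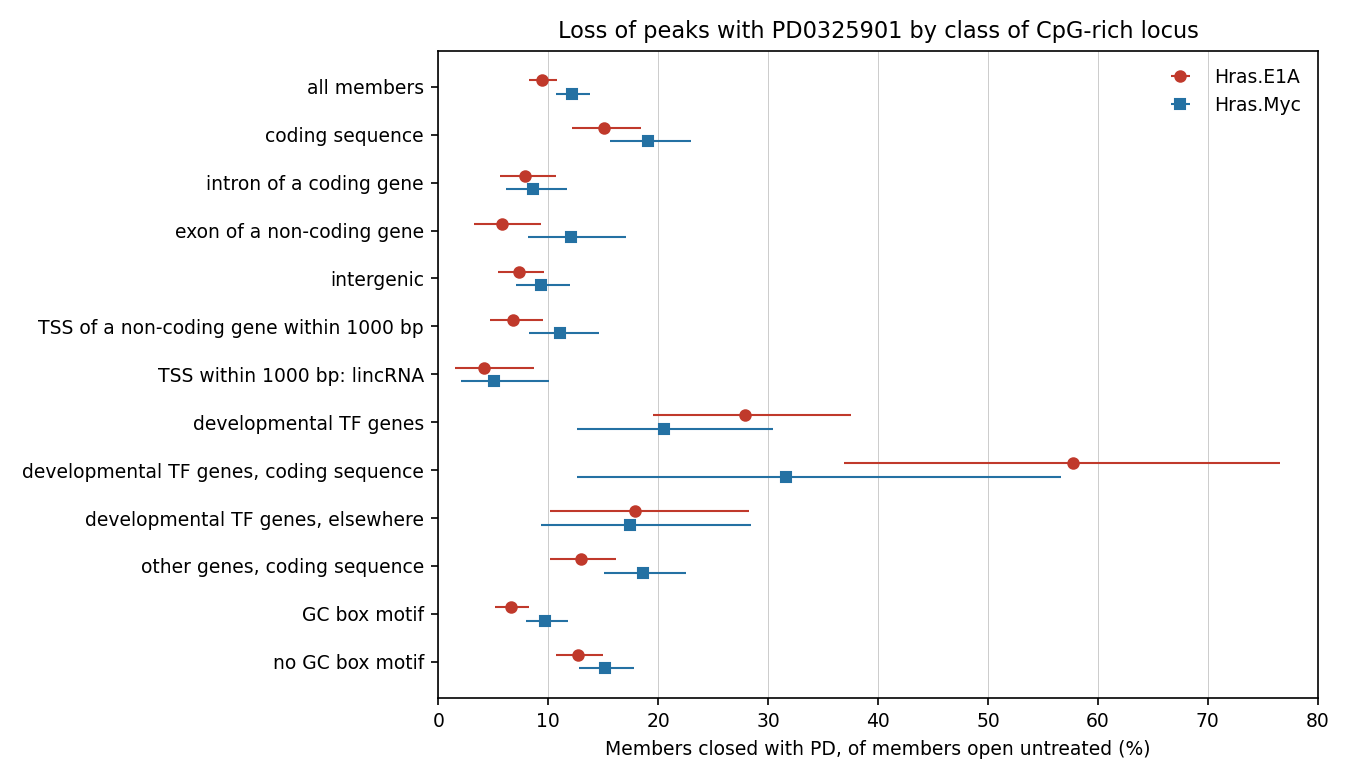
Percentage of members closed with PD, of members open untreated (x axis), by where they lie, by gene list and by GC box, in Hras.E1A (circles) and Hras.Myc (squares), with exact 95% binomial intervals. Members at developmental transcription factor (TF) genes were closed in 27.9% and 20.5% of cases, and lincRNA starts in 4.11% and 5.04%.

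Single loci show how this looked. Nkx2-5, the cardiac homeobox gene, had 4 members. The one in its coding sequence, 1841 bp downstream of the TSS, had no peak with PD and scores of 2.01 with TSA and 4.17 untreated in Hras.E1A, and no peak in any Hras.Myc list. The member 9079 bp upstream was closed with PD in Hras.E1A (1.34 untreated) and kept in Hras.Myc (2.72 with PD and 1.85 untreated). Tbx3, a T-box factor of limb and heart that also acts in pluripotent cells, had 2 members in coding sequence. With PD neither had a peak in Hras.E1A, where they scored 3.83 and 1.87 untreated, and neither had a peak in any Hras.Myc list. Hand2, a basic helix-loop-helix factor of heart and limb, held the strongest of the named members closed with PD in Hras.E1A. This member lay 19828 bp downstream of the Hand2 TSS, in an exon of the non-coding gene 5033428I22Rik. Its score was 11.2 in Hdac7SA.Mef2d, absent with PD, 11.1 with TSA and 11.0 untreated in Hras.E1A, and 8.91, 6.79 and 12.3 in Hras.Myc. It was thus missing from the Hras.E1A list with PD only. Sox1, a neural factor, lost 3 members with PD in Hras.Myc, at 9718 and 3270 bp upstream and 1379 bp downstream, with untreated scores of 3.47, 6.37 and 1.57. In Hras.E1A the first 2 of these were kept and the last was closed.

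Pax5, the B-cell identity factor, which is not in the list, showed a strong and a weak kind of member side by side. The member in its intron 5653 bp downstream of the TSS was open in all 7 lists and scored between 8.87 and 19.5. Those 1503 and 2405 bp upstream were closed with PD in Hras.E1A (2.83 and 3.53 untreated), and only the second was closed with PD in Hras.Myc. In Hras.Myc PD also closed 2 members each assigned to Krt1, Sgsm1, Slc22a7, the LIM homeobox gene Lhx2 and the neural factor gene Nhlh2. Krt1 is a keratin gene of differentiating epidermis, and Slc22a7 encodes a kidney and liver anion transporter. Assignment was to the nearest coding TSS and does not place a member inside the gene. The Slc22a7 members lay 16903 and 22292 bp upstream of its TSS, and 1 of the Krt1 members 8963 bp upstream. Both members assigned to Krt1 lay in coding sequence, not necessarily its own, and were open in all 3 Hras.E1A lists. In Hras.E1A PD also closed 2 members upstream of Polg, and 1 near Apba1, which had a score of 5.67 untreated. The Polg member at 32836 bp lies near the start of Mir9-3hg, a microRNA host gene. It scored 1.45 untreated, and the one at 48869 bp scored 1.21, both near the lowest score of 1.2.

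**Figure D5:**
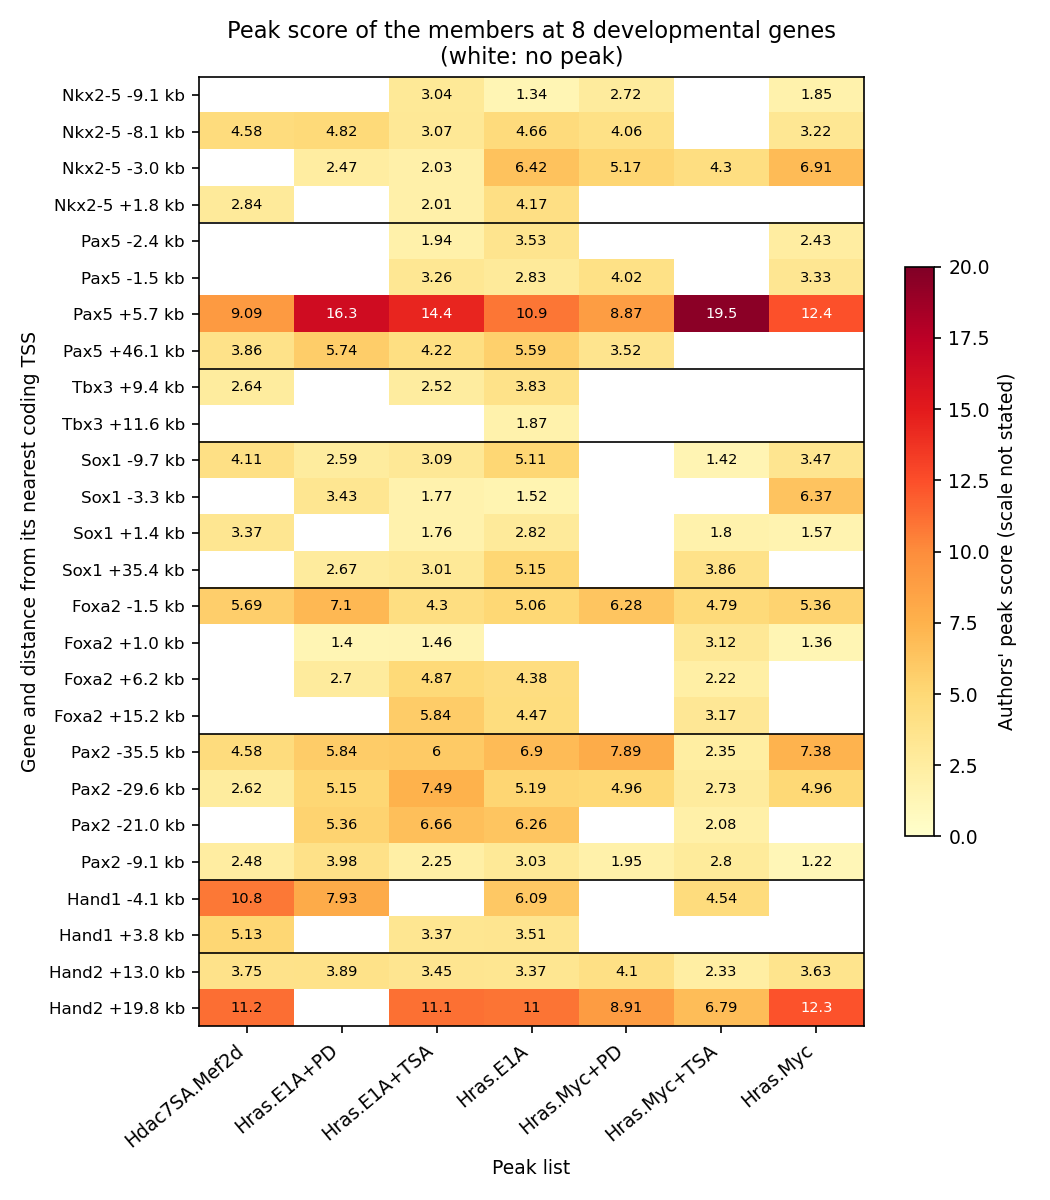
Authors' peak score (colour and number) of each member assigned to 8 developmental genes (rows, labelled by distance from the nearest coding TSS) in the 7 lists (columns). White means no peak. The Hand2 member at +19.8 kb has a peak in each list except Hras.E1A with PD, and the Pax5 member at +5.7 kb has one in all 7.

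PD opened members as well. Of 259 members without a peak in untreated Hras.E1A cells, 89 had one with PD (34.4%, 95% interval 28.6 to 40.5). The share was 14.5% for CpG-poor loci, 46.4% for CpG-rich promoter loci and 14.9% for all loci. A locus closed untreated was counted only because another list had a peak there, so opened shares depend on the other lists. Of 65284 such CpG-poor loci, 49411 were open in Hdac7SA.Mef2d and in neither untreated Hras line, against 100 of the 259 members. Of the 89 members, 11 had a peak in no other list. The part of this in the opened shares was not tested. Of 487 members without a peak in untreated Hras.Myc cells, 98 had one with PD (20.1%, 16.7 to 24.0). This was near the 18.1% of CpG-poor loci and 18.4% of all loci, and below the 30.3% of CpG-rich promoter loci. Of the 191 members closed in both untreated lines 25 were opened in both (13.1%), against 6.71% of all loci. Opened members were weak, with median scores of 1.81 and 1.87 in the PD lists of Hras.E1A and Hras.Myc. Without the lowest-scoring 25% of each list the opened shares were 14.6% in Hras.E1A and 11.7% in Hras.Myc. They were 57.0% and 46.0% when lists were cut to equal length. The strongest opened member in Hras.E1A lay over Tpd52-ps, 30768 bp downstream of the Abce1 TSS, and scored 9.14 with PD and 1.65 with TSA. It had no peak untreated in Hras.E1A and scored 4.70, 2.26 and 1.65 in Hras.Myc with PD, with TSA and untreated. The member in an intron of Myof, the gene of the membrane repair protein myoferlin, was opened in both lines, with scores of 6.55 in Hras.E1A and 4.70 in Hras.Myc. It also had a peak in Hdac7SA.Mef2d (2.24). The member near Tubg2, a gamma-tubulin gene, had a peak in 2 lists, Hdac7SA.Mef2d (3.70) and Hras.E1A with PD (8.01).

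HDAC inhibition closed 155 of 2032 members in Hras.E1A (7.63%, 95% interval 6.51 to 8.87), against 18.8% of CpG-poor loci away from coding promoters, 1.89% of CpG-rich promoter loci and 15.8% of all loci. In Hras.Myc it closed 228 of 1804 (12.6%, 11.1 to 14.3), against 19.2%, 4.30% and 16.4%. Of members open in both lines 23 were closed in both (1.32%), against 2.62% of all loci. The TSA lists came from 1 library each and share the untreated lists with the PD comparisons. With lists of equal length the closed shares were 12.8% in Hras.E1A and 19.3% in Hras.Myc, against 24.0% and 25.6% of CpG-poor loci. TSA opened 105 of 259 members in Hras.E1A (40.5%) and 133 of 487 in Hras.Myc (27.3%), against 16.7% and 17.7% of all loci. The shares were 45.8% and 28.3% for CpG-rich promoter loci. They too depend on which lists supplied the loci. Pairs of members were closed in Hras.E1A at Barhl1, Sp9 and Ebf3, all genes of transcription factors of the nervous system or limb. In Hras.Myc the closed pairs were assigned to Gbx2, Nkx2-3, Nkx2-5, Krt1, Kiz and Olfr1373. The genes were named for having most such members, out of 117 in Hras.E1A and 167 in Hras.Myc. Their kind does not describe all members closed with TSA. At Foxa2, a pioneer factor of endoderm, 2 members were opened with TSA in Hras.Myc, at 6172 and 15168 bp downstream, with scores of 2.22 and 3.17. In Hras.E1A both had peaks with TSA (4.87 and 5.84) and untreated (4.38 and 4.47), and neither had one in Hdac7SA.Mef2d. Kdm2b, which encodes the CXXC protein that brings a Polycomb complex to CpG islands, had a member in its intron that scored 8.23 with TSA in Hras.Myc and had no peak there with PD or untreated.

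Hdac7SA.Mef2d cells, which stand apart from the Hras lines at CpG-poor loci, shared nearly all of their members with them. Of 1933 members open in Hdac7SA.Mef2d, 100 were open in neither untreated Hras line (5.17%, 95% interval 4.23 to 6.26), against 48.8% of CpG-poor loci away from coding promoters, 0.901% of CpG-rich promoter loci and 42.6% of all loci. Of these members 48 were open in Hdac7SA.Mef2d alone among the 7 lists. At equal list length the share was 3.30%, and without the lowest-scoring 25% of each list it was 12.2%. Socs5, a suppressor of cytokine signalling, had 2 members open in Hdac7SA.Mef2d and in neither untreated Hras line. The one in its coding sequence, printed above, scored 8.41 in Hdac7SA.Mef2d and had no other peak, and the one in its intron scored 2.29 and had a peak with TSA in Hras.E1A (4.21). Cyp26c1, a retinoic acid hydroxylase, had 2 with scores of 2.00 and 1.83. In the other direction, 134 of 1736 members open in both untreated Hras lines had no peak in Hdac7SA.Mef2d (7.72%), against 16.0% of all loci. Pairs of these belonged to Sgsm1, Nkx2-5, Barhl2, Uncx, Pax5 and Tfap2a, and all but Sgsm1 encode developmental transcription factors. These genes were named, out of 103, for having most such members, so their kind does not describe the whole class. The member near Mir7229 upstream of Sgsm1 scored 7.22 in Hras.E1A and 6.55 in Hras.Myc untreated.

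Members open in one Hras line and not the other were mostly open in Hras.E1A, whose untreated list was also longer (81201 peaks, against 67738 in Hras.Myc). With 1 list per line, no difference between the lines was tested. Of 2032 members open in untreated Hras.E1A, 296 had no peak in untreated Hras.Myc (14.6%, 95% interval 13.1 to 16.2), against 25.2% of all loci. Of 1804 open in untreated Hras.Myc, 68 had no peak in untreated Hras.E1A (3.77%), against 10.3% of all loci. Over all lists of a line, 82 members were open in all 3 Hras.E1A lists and in no Hras.Myc list (3.58%, 2.86 to 4.42), against 1.28% of all loci, 1.23% of CpG-poor loci and 0.939% of CpG-rich promoter loci. The reverse pattern held for 1 member, in coding sequence 9126 bp from the Lipe TSS (0.0436%), against 0.147% of all loci. The base of both shares was every locus, whether open in that line or not. Untreated Hras.E1A cells had 88.7% of members open, against 49.3% of CpG-poor loci and 54.4% of all loci. The part of this in the higher share of members was not tested. Peaks of the 82 were not weak, with median scores of 5.23 with PD, 4.35 with TSA and 5.41 untreated in Hras.E1A. Hdac7SA.Mef2d cells had 63 of the 82 open (76.8%), against 84.4% of all members and 80.2% of all loci. At equal list length there were 52 such members and 7 of the reverse kind, and with the stricter composition there were 44 and 0. Leaving out loci at any annotated TSS left 45 and 1. Both counts were examined after the values were seen.

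The 82 lay on 18 chromosomes. Coding sequence held 26, exons of non-coding genes 21 and intergenic DNA 23, and 22 were more than 50000 bp from a coding TSS. The nearest non-coding TSS within 1000 bp was a processed pseudogene for 13, so that 20.6% of the 63 members of that kind showed the pattern. A run of 8 lay on chromosome 12 between 18.6 and 24.3 Mb, where 11 of 17 members were open in no Hras.Myc list, a run of 3 on chromosome 8 between 20.1 and 20.6 Mb, where 3 of 5 were, and a run of 3 on chromosome 1 between 171.1 and 172.3 Mb, where 3 of 3 were. The limits of each run were set by its own members, and the counts inside the limits include them. These counts are therefore no separate sign of a regional difference. Gain or loss of DNA in a line was not measured in these lists, and its part in the pattern was not tested. Named members of this kind lay at Pomc, the precursor of ACTH (scores of 9.58 with PD, 6.85 with TSA and 5.84 untreated in Hras.E1A, and 8.78 in Hdac7SA.Mef2d), at Zic1, a neural zinc finger factor (12.7, 5.55 and 7.14, and 6.70), and at Fpr2, a formyl peptide receptor (15.4, 10.6 and 7.56, and 7.78). These names were chosen after their values were seen. Of the 82, 2 were assigned to the list of developmental transcription factors, which held 127 of all 2291 members. That list does not hold every such gene. Others of the 82 were nearest to Sp5, Gata5, Pou3f2, Fezf1, Sox14, Nkx2-6 and Tbx1, also genes of developmental transcription factors and mostly outside the list. The count of 2 therefore does not show that such genes were rare among the 82.

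Other gene lists held fewer members, and their counts stand against 58.1% of all members and 20.2% of all loci open in all 7 lists. With PD, 9.45% of all members open untreated were closed in Hras.E1A and 12.2% in Hras.Myc, against 38.9% and 38.4% of all loci. The imprinted and Zfp counts were near the share of all members. Of 15 members at imprinted genes 8 were open in all 7 lists, among them the member near the start of Nespas, an antisense transcript of the Gnas cluster, which scored between 7.36 and 13.9. At Cdkn1c, a maternally expressed cell cycle inhibitor, the member 14883 bp downstream had peaks in Hdac7SA.Mef2d (4.40) and in Hras.E1A with PD (6.69) and untreated (7.62), and none in the other 4 lists. Of 24 members in the Hox clusters, which pattern the body axis, 11 were open in all 7, and PD closed 3 of 20 in Hras.E1A and 1 of 18 in Hras.Myc. Of 21 members at ERK targets and feedback regulators 15 were open in all 7, and PD closed none of 19 in Hras.E1A (95% upper limit 17.6%) and 2 of 19 in Hras.Myc. Fos, a component of AP-1 and an immediate early gene of ERK, had 3 members, all open in all 7 lists, with scores between 1.43 and 11.0. Those at Ccnd1, the cyclin D1 gene, were open in all 7 lists for 2 of 3. Of 10 members at pluripotency genes 5 were open in all 7. Among the named genes of this list, PD in Hras.E1A closed both Tbx3 members and the Sall1 member 1856 bp downstream of its TSS. Both Klf4 members, the other Sall1 member and the Utf1 member kept a peak there. The member of Klf4, a reprogramming factor, 17272 bp downstream of its TSS had a peak in all 7 lists, with scores of 5.46 to 10.9, and the other, in its coding sequence, had a peak in 5 lists. All 5 members at histone genes and 4 of 5 at epithelial genes were open in all 7 lists. At chromatin regulators, 7 of 13 were, and PD closed 3 of 10 in Hras.E1A and 0 of 7 in Hras.Myc. Zinc finger genes of the Zfp family had 42 members, and 24 had a peak in all 7. Mesenchymal genes had 2 members, at Tgfb1 and Twist1, and clustered protocadherins had 1. Of the transgenes, Hras, Myc and Hdac7 had no member, and Mef2d had 1, 35189 bp downstream of its TSS, which was open in all 7 lists with scores between 3.46 and 5.44.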

How the data were processed

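ATAC-seq libraries of 12 samples in 7 groups were used. According to the submitters' notes, the authors mapped reads to mm10 with Bowtie2 2.4.5 and called peaks with MACS2 2.2.7.1, and per the methods a further step shared peak information across samples to recover weak peaks. The deposited files give 1 peak list per group, with every peak 400 bp wide and a score by the authors of 1.2 or more whose scale is not stated. The sources used here do not say how replicates were combined. Scores entered no test. They ranked peaks inside a list and, across lists, chose the printed sequences and broke ties between genes, so scores set side by side from different lists are not comparable levels. Read depth is unknown.

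Peaks of the 7 lists that overlapped were merged into loci. GC content and CpG ratio were computed from the GRCm38 genome with pysam 0.24.0, and genes were taken from GENCODE M21 (basic set). Members were assigned to the nearest coding TSS within 50000 bp. Closed means a peak untreated and none with the inhibitor, and opened the reverse. Shares were given exact 95% binomial intervals with scipy 1.17.1. With 1 list per group no test between groups was possible. Motifs (20, in 34 forms) and 12 gene lists were examined. Genes were named by the number of members in total, per direction of change and per list, with ties broken by score, and other names are marked in the text. The members and lists were chosen with earlier results of these data known. The scripts were tested on simulated data. Wildtype MEF data were not analysed here. Alternatives covered overlap, weak peaks, list length, TSS distance, composition, annotated starts and a 500 bp tolerance.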

Additional observations from a re-analysis of the deposited data

How the results depend on the processing

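The number of members was 1488 beyond 5000 bp from a coding TSS, 1118 with 60% GC and a CpG ratio of 0.75, and 1356 without loci at any annotated TSS. Without the lowest-scoring 25% of each list, members closed with PD were 15.6% in Hras.E1A and 17.9% in Hras.Myc, opened with PD 14.6% and 11.7%, and closed with TSA 13.48% and 16.8%, while 32.2% were open in all 7 lists and 12.2% of Hdac7SA.Mef2d members were open in neither untreated Hras line. With lists of equal length the same values, in that order, were 3.83%, 8.42%, 57.0%, 46.0%, 12.8%, 19.3%, 22.6% and 3.30%. Beyond 5000 bp, PD closed 7.99% in Hras.E1A and opened 27.4% in Hras.E1A and 15.2% in Hras.Myc, 62.2% were open in all 7 lists, and 4.08% were open in Hdac7SA.Mef2d and in neither untreated Hras line. With the stricter composition, PD closed 7.87% in Hras.E1A and opened 25.5% in Hras.Myc, and the Hdac7SA.Mef2d share was 4.05%. Without loci at any annotated TSS, PD closed 10.9% in Hras.E1A and 55.7% were open in all 7 lists. Leaving out the TSA lists, a choice made after seeing the data, 63.0% of members and 14.8% of CpG-poor loci were open in all 5 others. The causes of these shifts were not tested. The opened share with PD in Hras.Myc lay below that of CpG-poor loci without the weakest 25% (13.9%) and beyond 5000 bp (18.2%). In all 28 of 28 values of the 4 closed shares, members lay below CpG-poor loci. No paired analysis was possible because each group has 1 pooled list, and for the same reason no library could be left out. Depth is unknown, so a missing peak may be a weak one.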
